A study of Mus musculus with 6 samples.

Results

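The genes described here encode proteins that copy mitochondrial DNA, supply it with nucleotides, transcribe it and mature, protect or degrade its transcripts. They were chosen by symbol from what their proteins are known to do, 33 of the 51911 genes in the deposited count table, and all 33 were matched and passed the filter on low counts. RNA came from gastrocnemius, a calf muscle, of male mice and was sequenced in bulk. One group of 3 libraries came from mice carrying the HSA-PGC-1a3 transgene, in which the human skeletal actin promoter, active in skeletal muscle fibres, drives the PGC-1alpha3 isoform of the coactivator PGC-1alpha. The other 3 libraries came from wild-type mice, and the labels give no treatment and no age for either group. Neither the number of animals behind a library nor the number of transgenic lines is stated, so the p-values measure the spread between these libraries, which may be technical in part.

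Mitochondrial DNA is a small circle packed into nucleoids by TFAM, and every protein that copies or transcribes it is encoded in the nucleus and imported. It is copied by DNA polymerase gamma with the helicase Twinkle, and transcribed by the RNA polymerase POLRMT into long transcripts that span many genes. Those transcripts are then cut at the tRNAs between the mRNAs and rRNAs, polyadenylated, bound by the LRPPRC-SLIRP complex and finally degraded. PGC-1alpha is known in muscle for raising mitochondrial gene expression together with the nuclear respiratory factors and the oestrogen-related receptors.

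Library totals were 25532146 to 40846872 counts, and Ppargc1a, which includes the transgene, had 94358, 73513 and 120862 counts with the transgene against 1179, 1809 and 1200 in the wild-type libraries, so the labels matched. Levels are given as CPM, counts scaled to a common library size by TMM factors, which averaged 1.15 in the transgenic and 0.87 in the wild-type libraries. When libraries were scaled by their totals alone, all genes had a median log2 fold change of 0.38 in place of -0.02, so directions are given relative to the other genes, and the value on library totals is printed where it changes the reading. Markers of fast skeletal fibres summed to 103700 to 107300 CPM in the transgenic and 206400 to 219000 CPM in the wild-type libraries, with 11 of 12 lower and 1 higher. Slow-fibre markers summed to 1438 to 3164 against 946 to 2286 CPM, with 0 of 10 higher and 1 lower. Endothelial markers summed to 420 to 441 against 534 to 568 CPM, with 10 of 10 lower, or 1 of 10 on library totals. Lymphocyte markers summed to 11.9 to 14.9 against 30.6 to 122 CPM, a sum set by Ighm (3.89 against 88.7 CPM on average), while Cd3e, the other of the 2 tested, was higher (8.57 against 1.04 CPM). Fibroblast markers summed to 2063 to 2426 against 2468 to 2891 CPM, with 0 of 9 higher and 4 lower. Satellite cell markers summed to 77.4 to 102 against 74.3 to 81.8 CPM, with 3 of 7 higher and 1 lower. Adipocyte markers summed to 143 to 178 against 186 to 370 CPM, with 0 of 7 tested higher and 1 lower. Of erythroid markers 0 of 5 were higher and 3 lower, of macrophage markers 1 of 9 higher and 0 lower, and of 7 Schwann cell markers 0 were called. No marker was at 0 in all libraries, their part in the results below was not tested, and in whole muscle fewer cells of a type and less RNA per cell cannot be told apart.

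Over all 33 genes there was no common direction. Relative to the other genes, 9 rose in the transgenic muscle, 10 fell and 14 did not pass the test (quasi-likelihood F test in edgeR, p adjusted over 16593 genes after Benjamini and Hochberg, threshold 0.05). Of all genes tested, 50.7% passed, 25.5% as higher and 25.2% as lower, while 57.6% of the 33 passed, 27.3% as higher and 30.3% as lower, so neither share stands far from the background. The median log2 fold change of the 33 was 0.03. The CPM of the genotypes did not overlap for 26 genes, 78.8% of the 33, against 59.6% of all genes tested. On library totals alone 23 of the 33 were higher and 2 lower, against 52.3% and 8.73% of all genes, and the median became 0.42.

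The genes that rose were Primpol, Tfb1m, Lrpprc, Mterf3, Dguok, Slirp, Polrmt, Ssbp1 and Twnk. The first 6 of these rose at least 1.5-fold, which 12.7% of all genes tested did. The genes that fell were Mgme1, Top1mt, Tk2, Tefm, Rnaseh1, Tbrg4, Tfb2m, Fastkd3, Mterf2 and Fastkd5, of which Mgme1, Top1mt and Tk2 fell at least 1.5-fold, as did 11.3% of all genes tested. All 9 risers were also called higher on library totals, whereas of the 10 that fell only Mgme1 and Top1mt stayed called lower, and Mterf2, Fastkd3 and Fastkd5 had positive values there. Exon bases are shared with another gene by 18 of the 33, and at least 20% of them by 6. Among these are the called genes Slirp (93.9%, with Snw1), Fastkd5 (65.2%, with Ubox5) and Mterf2 (22.7%, with Tmem263). The others are Mterf4 (35.2%, with Sned1), Fastk (26.1%, with Slc4a2) and Lig3 (25.1%, with Rffl). Fragments there were counted for both genes, so the calls of Slirp and Fastkd5 cannot be told apart from reads of Snw1 and Ubox5. The variation among libraries of a genotype was small, with a median coefficient of variation of 3.81% over the 33 genes in the transgenic and 5.77% in the wild-type libraries.

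**Figure D1:**
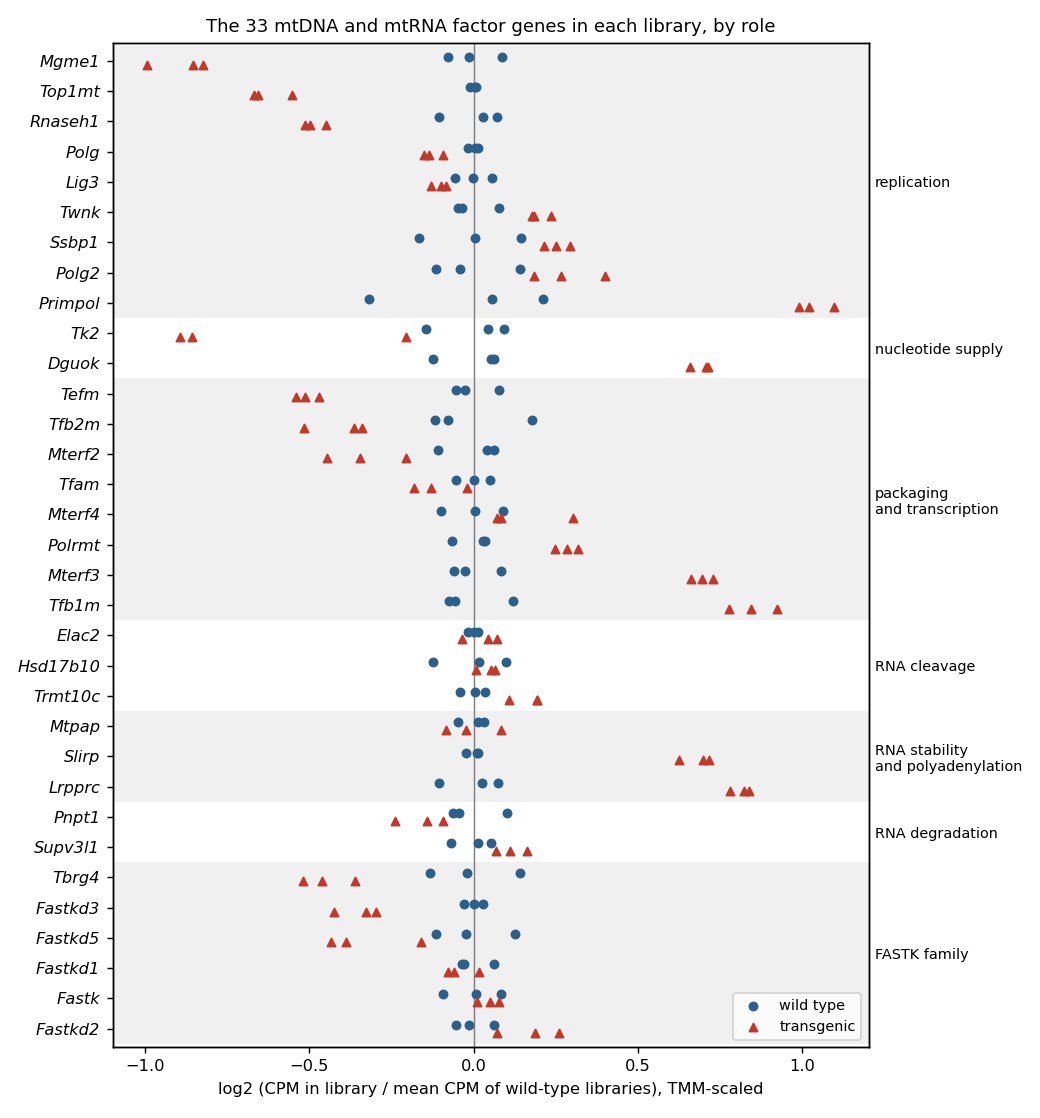
Each point is 1 library, placed by the log2 ratio of its TMM-scaled CPM to the mean of the wild-type libraries (x axis), for the 33 genes grouped by role (y axis); triangles are transgenic and circles wild type. Primpol, Tfb1m, Lrpprc, Mterf3, Dguok and Slirp stand to the right of their wild-type points, and Mgme1, Top1mt and Tefm to the left.

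**Figure D2:**
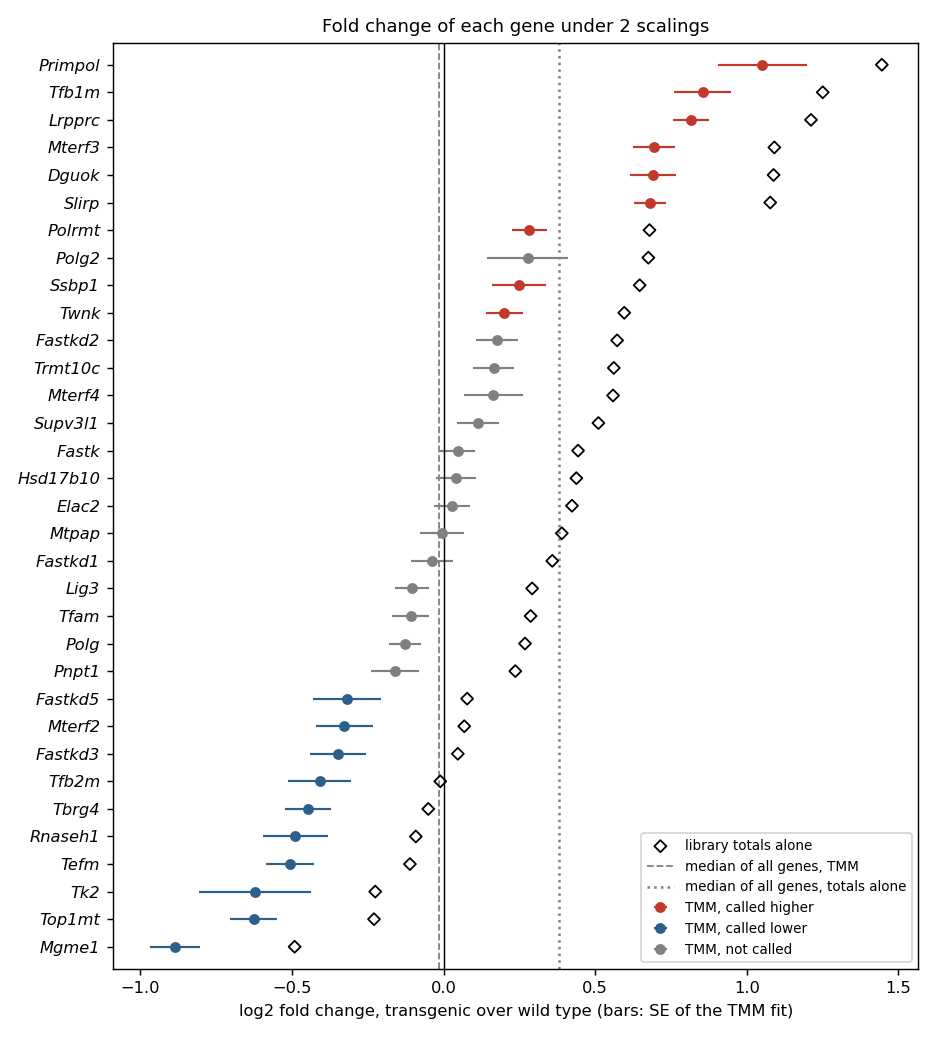
The log2 fold change of each gene, transgenic over wild type, is shown with its SE under TMM scaling (filled, coloured by call) and under library totals alone (open diamonds); the dashed and dotted lines are the medians of all genes under each scaling. The open points lie about 0.4 to the right of the filled ones, and the order of the genes is the same.

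Among the 9 replication genes 3 rose, 3 fell and 3 did not pass the test, and on library totals 6 were higher and 2 lower. That is 33.3% each way, against 25.5% and 25.2% of all genes tested. On library totals it is 66.7% and 22.2%, against 52.3% and 8.73%. Primpol (chromosome 8, 46575594 to 46617212, GRCm38) encodes a primase-polymerase that restarts stalled replication in the nucleus and in mitochondria. It stood at 7.14, 7.53 and 6.99 CPM in transgenic replicates 1 to 3 and at 4.07, 2.82 and 3.65 CPM in wild-type replicates 1 to 3. The groups did not overlap, and the log2 fold change was 1.05 (SE 0.15, adjusted p = 0.000128). That is the 93.9th percentile of all genes tested. In its exons, 16.7% of bases are shared with Cenpu on the opposite strand, a kinetochore gene whose own log2 fold change was 1.10 (SE 0.24, adjusted p = 0.00244), and the counting ignored strand.

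Mgme1 (chromosome 2, 144270663 to 144281227), the exonuclease that trims the ends of newly copied mitochondrial DNA and degrades linear fragments, moved the other way. Its level was 11.5, 10.3 and 11.3 CPM with the transgene and 19.4, 20.2 and 21.7 CPM in the wild-type libraries. Every transgenic value was below every wild-type value, with a log2 change of -0.89 (SE 0.08, adjusted p = 6.93e-06) and of -0.49 on library totals (adjusted p = 0.000384). Its neighbour Snx5, which shares 6.15% of the Mgme1 exon bases, had a log2 fold change of 0.28. Top1mt (chromosome 15, 75657035 to 75678800), the topoisomerase that relieves supercoils in mitochondrial DNA, was at 10.5, 11.4 and 10.6 CPM against 16.6, 16.7 and 16.8 CPM. The wild-type libraries were nearly identical and the genotypes did not overlap. The log2 fold change was -0.63 (SE 0.08, adjusted p = 5.41e-05), or -0.23 on library totals (adjusted p = 0.0233). Rnaseh1, which removes the RNA primers left by transcription at the origins, fell too, from 7.11, 8.03 and 7.80 CPM in wild type to 5.36, 5.60 and 5.41 CPM. Its log2 fold change of -0.49 (adjusted p = 0.0028) became -0.09 on library totals (adjusted p = 0.472).

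The core replication enzymes changed less. Twnk, encoding the helicase Twinkle, was at 37.6, 37.5 and 39.0 CPM in the transgenic and 32.1, 32.4 and 35.0 CPM in the wild-type libraries, a log2 change of 0.20 (SE 0.06, adjusted p = 0.0187). Ssbp1, which coats the single strand that Twinkle opens, was at 19.0, 18.5 and 18 against 13.8, 17.1 and 15.6 CPM, a log2 change of 0.25 (SE 0.09, adjusted p = 0.0353). Both calls missed the threshold with fewer libraries. Twnk had 0.17 without wild-type replicate 1 (adjusted p = 0.0675) and 0.18 without wild-type replicate 2 (adjusted p = 0.0627). Ssbp1 had 0.25 without transgenic replicate 1 (adjusted p = 0.059), 0.24 without wild-type replicate 3 (adjusted p = 0.0904) and 0.17 without wild-type replicate 1 (adjusted p = 0.138). Twnk shares 12.6% of its exon bases with Mrpl43, a mitochondrial ribosomal protein gene on the opposite strand, whose own log2 fold change was 0.49 (SE 0.06, adjusted p = 8.56e-05). Polg, the catalytic subunit of polymerase gamma, was at 45.9, 47.3 and 45.5 against 50.9, 49.9 and 50.7 CPM, and its log2 fold change of -0.13 (95% interval -0.24 to -0.01) did not pass the test (adjusted p = 0.0677). Polg2, its accessory subunit, was at 4.73, 5.2 and 4.47 against 3.64, 4.35 and 3.83 CPM, and its 0.28 (-0.02 to 0.57) did not pass either (adjusted p = 0.109). For Lig3, the ligase that seals the copied strand, the value was -0.10 (-0.23 to 0.02), and the 3 transgenic libraries lay at 43.1 to 44.5 CPM, under the wild-type range of 45.4 to 49.0 CPM. Polg and Lig3 had positive values on library totals, 0.27 and 0.29.

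The pair of mitochondrial deoxynucleoside kinases, which supply building blocks for mitochondrial DNA in cells that no longer divide, moved in opposite directions. Dguok (chromosome 6, 83480217 to 83506969), the kinase for deoxyguanosine and deoxyadenosine, was at 22.9, 23.8 and 23.7 CPM in the transgenic and 15.1, 15.2 and 13.3 CPM in the wild-type libraries. The lowest transgenic value exceeded the highest wild-type value by a wide margin, and the log2 fold change was 0.69 (SE 0.08, adjusted p = 2.37e-05). Tk2 (chromosome 8, 104226685 to 104248558), the kinase for thymidine and deoxycytidine, was at 5.43, 3.36 and 3.46 against 6.67, 6.45 and 5.66 CPM. Transgenic replicate 1 lay just under the wild-type range and the other transgenic libraries far below it, a coefficient of variation of 28.5%, the widest among the 33 genes. The log2 fold change of -0.62 (95% interval -1.03 to -0.21, adjusted p = 0.0159) was not called on library totals, where it was -0.23 (adjusted p = 0.321). Dguok kept its call in all 18 alternative settings and Tk2 lost it in 6, with -0.48 without transgenic replicate 2 (adjusted p = 0.0654), -0.50 without transgenic replicate 3 (adjusted p = 0.0634) and -0.58 without wild-type replicate 1 (adjusted p = 0.0547).

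Of the 8 packaging and transcription genes 3 rose, 3 fell and 2 did not pass the test, and on library totals 5 were higher and 0 lower. That is 37.5% each way, against 25.5% and 25.2% of all genes tested. On library totals it is 62.5% and 0%, against 52.3% and 8.73%. Tfam, whose product packages mitochondrial DNA and starts its transcription, was at 54.7, 49.0 and 50.8 CPM in the transgenic and 57.5, 55.5 and 53.5 CPM in the wild-type libraries. The genotypes overlapped, and the log2 fold change of -0.11 (95% interval -0.24 to 0.03) did not pass the test (adjusted p = 0.164), although on library totals it was 0.29 (adjusted p = 0.00183). Polrmt, the RNA polymerase itself, rose from 34.8, 37.3 and 37.2 CPM to 45.4, 44.4 and 43.3 CPM. No transgenic library fell within the wild-type range, and the log2 fold change was 0.28 (SE 0.06, adjusted p = 0.00202).

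The 2 TFB proteins parted. Tfb1m (chromosome 17, 3519256 to 3557781) encodes the dimethyltransferase of the small mitochondrial ribosomal RNA, and it was at 13.8, 13.2 and 14.6 CPM in the transgenic against 7.41, 7.31 and 8.38 CPM in the wild-type libraries. Its log2 fold change was 0.85 (SE 0.09, adjusted p = 2.2e-05), the 91.4th percentile of all genes. Tfb2m, the initiation factor that opens the promoter for POLRMT, was at 9.11, 10.1 and 10.3 against 12, 14.7 and 12.3 CPM. Its log2 fold change was -0.41 (SE 0.10, adjusted p = 0.00642), and -0.01 on library totals (adjusted p = 0.93). Tefm, the elongation factor that keeps POLRMT on its template, was at 11, 10.7 and 10.4 against 14.6, 14.9 and 16.0 CPM, with -0.51 as its log2 fold change (SE 0.08, adjusted p = 0.000316), or -0.11 on library totals (adjusted p = 0.26). So under TMM scaling the log2 fold change of the methyltransferase gene lay above that of most genes. Those of the initiation and elongation factor genes lay below that of most genes.

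The MTERF family, proteins that bind mitochondrial DNA or ribosomal RNA, was also divided. Mterf3 (chromosome 13, 66906968 to 66933088), known as a repressor of mitochondrial transcription and as a ribosome assembly factor, was at 28.3, 29.0 and 27.7 CPM in the transgenic and 17.2, 18.5 and 16.8 CPM in the wild-type libraries. Its log2 fold change was 0.69 (SE 0.07, adjusted p = 1.11e-05). Ptdss1, an overlapping gene on the opposite strand that shares 4.67% of the Mterf3 exon bases, had a log2 fold change of 0.72 of its own. Mterf2 was at 10.6, 11.6 and 9.83 against 13.8, 12.4 and 14.0 CPM, a log2 fold change of -0.33 (adjusted p = 0.0133) that became 0.07 on library totals and -0.26 without transgenic replicate 3 (adjusted p = 0.0643). For Mterf4, which targets a methyltransferase to the large ribosomal RNA, the genotypes overlapped at 11.2 to 13.2 and 9.96 to 11.4 CPM, and 0.16 (95% interval -0.05 to 0.38) did not pass the test (adjusted p = 0.188). Mterf4 shares 35.2% of its exon bases with Sned1 and Mterf2 22.7% with Tmem263, whose own log2 fold changes were 0.10 and 0.15.

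The 4 promoters below show where the letters bound by the nuclear respiratory factor NRF1 and by ETS factors such as GABPA lie in the core transcription genes, one that rose (Polrmt), one that did not pass the test (Tfam) and a pair that fell (Tfb2m and Tefm). Each runs from 90 bases before to 30 bases from the RefSeq start site, on the minus strand of GRCm38.p6, 5′ to 3′, at chr1:179546247-179546366 (Tfb2m), chr10:79746552-79746671 (Polrmt), chr10:71238015-71238134 (Tfam) and chr11:80142124-80142243 (Tefm). Capitals mark exact full matches only, GCGCANGCG on either strand in Tfb2m and Polrmt, with overlapping matches in Polrmt joined, and CCGGAAGT in Tfam and Tefm. The shorter ETS core CGGAAG, left unmarked, also stands in the Tfb2m stretch and, on the other strand, in the Polrmt stretch.
Tfb2m: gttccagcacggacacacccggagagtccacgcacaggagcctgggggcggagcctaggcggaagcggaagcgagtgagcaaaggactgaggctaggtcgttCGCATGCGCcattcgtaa
Polrmt: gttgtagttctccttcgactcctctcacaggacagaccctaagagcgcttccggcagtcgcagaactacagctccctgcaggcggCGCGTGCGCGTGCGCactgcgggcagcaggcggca
Tfam: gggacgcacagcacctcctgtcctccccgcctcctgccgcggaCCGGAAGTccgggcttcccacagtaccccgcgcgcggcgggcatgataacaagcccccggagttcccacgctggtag
Tefm: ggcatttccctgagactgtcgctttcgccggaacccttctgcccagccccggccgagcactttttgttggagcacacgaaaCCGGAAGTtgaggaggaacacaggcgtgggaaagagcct

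RefSeq windows of 300 bases, 250 before and 50 after a start site, were matched for 29 of the 33 genes, 31 windows in all, and both strands were searched. The ETS letters CCGGAAGT stood in 6 of the 31 windows (19.4%), those of Polg, Twnk, Tfam, Tefm, Trmt10c and Fastkd5, against 3.89% of all promoters and 7.2% of those of tested genes. The NRF1 letters GCGCANGCG stood in 5 windows (16.1%), those of Tfb2m, Polrmt, Lig3, Supv3l1 and Fastkd3, against 6.25% and 12%. The YY1 letters AAGATGGCG stood in 3 windows (9.68%), those of Mgme1, Slirp and Tbrg4, against 1.4% and 2.70%. The oestrogen-related receptor letters TNAAGGTCA were in none of the 31 windows, and in 1.28% of all promoters and 0.89% of those of tested genes. The ETS letters were in 1 of 9 windows of genes that rose, 2 of 9 of genes that fell and 3 of 13 of genes that did not pass the test, and the NRF1 letters in 1, 2 and 2 of these. Median GC content was 58.0% in the 31 windows, 52.7% in all promoters and 60.3% in those of tested genes.

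The 3 genes whose products cut the long transcripts at their tRNAs did not pass the test relative to other genes. All 3 were higher on library totals, as were 52.3% of all genes tested. Trmt10c and Hsd17b10 form the core of mitochondrial RNase P with the nuclease PRORP and cut the 5′ end of a tRNA, and Elac2 encodes RNase Z, which cuts the 3′ end. Trmt10c was at 20.7, 22 and 22 CPM in the transgenic and 18.7, 19.3 and 19.7 CPM in the wild-type libraries, without overlap, and its log2 fold change of 0.16 (95% interval 0.01 to 0.31) missed the threshold (adjusted p = 0.0637), which it passed without transgenic replicate 1 (0.21, adjusted p = 0.0476). Hsd17b10 overlapped at 39.9 to 41.5 and 36.4 to 42.5 CPM, with 0.04 (-0.11 to 0.19, adjusted p = 0.643). Elac2 overlapped at 30.8 to 33.1 and 31.2 to 31.8 CPM, with 0.03 (-0.11 to 0.16, adjusted p = 0.734). Under TMM scaling these intervals, each for a single gene and not adjusted for the number tested, ended at 0.31, 0.19 and 0.16, in the order named. The log2 fold changes on library totals were 0.56, 0.44 and 0.42.

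Among the genes for stability and polyadenylation Lrpprc rose, and so did the counts assigned to Slirp, its partner in the LRPPRC-SLIRP complex, a gene that shares most of its exon bases with another. Lrpprc (chromosome 17, 84705247 to 84790789), which binds most mitochondrial mRNAs and keeps them stable and polyadenylated, was at 257, 268 and 265 CPM in the transgenic and 139, 152 and 158 CPM in the wild-type libraries. Its groups lay far apart, with a log2 change of 0.82 (SE 0.06, 95% interval 0.69 to 0.94, adjusted p = 1.08e-06), the 90.7th percentile. Slirp (chromosome 12, 87443896 to 87452206), the small RNA-binding partner that stabilises LRPPRC, was at 81.2, 76.3 and 80.2 against 49.7, 49.8 and 48.6 CPM. Its log2 fold change was 0.68 (SE 0.05, adjusted p = 2.08e-06). Of the 3104 exon bases of Slirp, however, 2914 (93.9%) are shared with the splicing factor gene Snw1 on the opposite strand, and fragments there were counted for both genes. Snw1 had 2790, 2629 and 3395 counts in the transgenic and 1695, 2601 and 1662 in the wild-type libraries, and its own log2 fold change was 0.28 (SE 0.05, adjusted p = 0.000845). The Slirp counts, 2468, 2289 and 2993 against 1148, 1731 and 1090, therefore cannot be told apart from Snw1 reads. Mtpap, the mitochondrial poly(A) polymerase, overlapped at 19.5 to 21.8 and 19.96 to 21.1 CPM, with a log2 fold change of -0.01 (95% interval -0.17 to 0.15, adjusted p = 0.95) and of 0.39 on library totals.

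The degradosome genes, which clear mitochondrial RNA, did not pass the test. Pnpt1, its exonuclease polynucleotide phosphorylase, was at 16.2 to 17.9 CPM in the transgenic and 18.2 to 20.4 CPM in the wild-type libraries, a log2 fold change of -0.16 (95% interval -0.33 to 0.01, adjusted p = 0.111) and 0.24 on library totals. Supv3l1, the helicase that feeds it, was at 22.5 to 24.0 against 20.4 to 22.3 CPM, a log2 fold change of 0.11 (-0.04 to 0.26, adjusted p = 0.19). The genotypes did not overlap for either gene, as for 59.6% of all genes tested, and the values had opposite signs under TMM scaling only. On library totals both genes were called higher, Pnpt1 with an adjusted p of 0.0166 and Supv3l1 at 0.51 (adjusted p = 4.54e-05). So were 52.3% of all genes tested.

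In the FASTK family, RNA-binding proteins that each mature or protect certain mitochondrial transcripts, 0 of 6 rose and 3 fell relative to other genes, whereas on library totals 3 were higher and 0 lower. The shares of all genes tested were 25.5% and 25.2%, or 52.3% and 8.73% on library totals. With 6 genes no departure from these shares is read. Tbrg4, also known as Fastkd4, which stabilises several mRNAs, was at 39.7, 42.5 and 38.1 CPM in the transgenic and 49.8, 60.2 and 53.9 CPM in the wild-type libraries. The groups did not overlap, and the log2 fold change was -0.45 (SE 0.08, adjusted p = 0.000559), or -0.05 on library totals. Fastkd3 was at 7.79, 7.96 and 7.29 against 9.96, 9.79 and 9.58 CPM, with -0.35 (adjusted p = 0.00855), which became 0.05 on library totals. Fastkd5, needed to process transcripts that no tRNA flanks, was at 6.97, 7.2 and 8.44 against 8.71, 9.27 and 10.3 CPM, with -0.32 (adjusted p = 0.035) and 0.08 on library totals. It shares 65.2% of its exon bases with Ubox5 on the same strand, whose log2 fold change was -0.28 (adjusted p = 0.0229), so the reads of these genes cannot be told apart, and it kept its call in 8 of 18 alternative settings. Leaving out transgenic replicate 1 or 2, or wild-type replicate 2 or 3, gave -0.24, -0.26, -0.34 and -0.26 in that order (adjusted p = 0.144, 0.136, 0.0614 and 0.122).

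The founding member Fastk, whose mitochondrial form is needed for the ND6 transcript, overlapped at 198 to 207 and 184 to 208 CPM, with a log2 fold change of 0.05 (95% interval -0.08 to 0.17, adjusted p = 0.528). Fastkd1 overlapped at 20.4 to 21.7 and 20.9 to 22.4 CPM, with -0.04 (-0.19 to 0.11, adjusted p = 0.677), and had 0.36 on library totals. Fastkd2, which binds the large ribosomal RNA, lay at 27.6 to 31.5 against 25.3 to 27.4 CPM without overlap, and its 0.18 (0.02 to 0.33) missed the threshold (adjusted p = 0.058), which it passed without transgenic replicate 1 (0.25, adjusted p = 0.0224). Among the 6, the values of Fastkd2 and Tbrg4 thus lay on opposite sides of 0 with non-overlapping libraries.

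Ratios of counts between functional partners do not depend on how libraries are scaled. The ratio was taken in each library for 15 pairs, which were chosen after the values of their genes were seen, so the ratios are a description. Of these, 12 pairs did not overlap between genotypes; the share among other gene pairs was not measured, and nothing is read from that count. With 3 against 3 libraries the smallest p that an exact permutation test (two-sided) can give is 0.1, so no pair could pass. Each of the 12 reached 0.1, or 0.125 after Benjamini-Hochberg adjustment over the 15 pairs.

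The Dguok to Tk2 ratio was 4.22, 7.08 and 6.87 in the transgenic and 2.26, 2.35 and 2.35 in the wild-type libraries, 2.54-fold higher on average. For Tfb1m over Tfb2m it was 1.52, 1.30 and 1.42 against 0.617, 0.496 and 0.679, so the ratio of counts was under 1 in every wild-type library and over 1 in every transgenic library. Mterf3 over Mterf2 was 2.68, 2.49 and 2.81 against 1.25, 1.49 and 1.2. These 3 pairs had the largest differences in log2 ratio among the 15.

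Around the polymerase, the ratio of Tefm to Polrmt was 0.242, 0.240 and 0.241 in the transgenic muscle and 0.421, 0.400 and 0.432 in the wild-type libraries. Tfb2m over Polrmt was 0.201, 0.228 and 0.238 against 0.345, 0.395 and 0.332. Polrmt over Tfam was 0.830, 0.906 and 0.852 against 0.605, 0.672 and 0.695. So per count of the polymerase gene there were fewer counts of the elongation factor, the initiation factor and TFAM in every transgenic library.

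In the replication set, Mgme1 over Polg was 0.251, 0.217 and 0.249 in the transgenic and 0.380, 0.405 and 0.428 in the wild-type libraries. Twnk over Polg was 0.819, 0.792 and 0.858 against 0.629, 0.648 and 0.690, and Polg over Polg2 was 9.70, 9.11 and 10.2 against 14.0, 11.5 and 13.2. Pnpt1 over Supv3l1, the partners of the degradosome, was 0.718, 0.793 and 0.697 against 0.892, 0.917 and 0.854. The pairs that overlapped were Lrpprc over Slirp (difference in log2 ratio 0.14, exact p = 0.2), Trmt10c over Hsd17b10 (0.12, exact p = 0.2) and Ssbp1 over Twnk (0.06, exact p = 0.7). Of these, the first holds the counts that Slirp shares with Snw1.

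**Figure D3:**
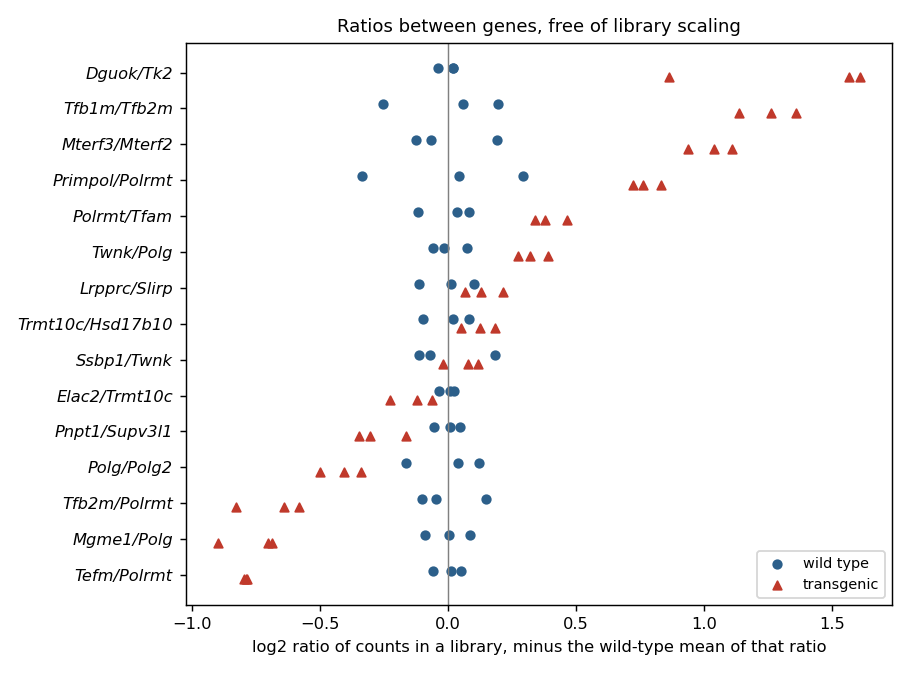
For 15 pairs of partner genes (y axis), the log2 ratio of their counts in each library is drawn relative to the wild-type mean of that ratio (x axis); triangles are transgenic and circles wild type. Dguok/Tk2 and Tfb1m/Tfb2m lie farthest to the right, Tefm/Polrmt and Mgme1/Polg farthest to the left, and 12 of the 15 pairs do not overlap.

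Levels per exon length (RPKM, over the union of annotated exons) spread widely among the 33 genes. In wild-type muscle Fastk was highest at 44.9 ± 2.75 RPKM (SD, n = 3), followed by Hsd17b10 at 30.6 ± 2.36 RPKM. Next came Lrpprc at 17.6 ± 1.12, Slirp at 15.9 ± 0.228, Tbrg4 at 14.8 ± 1.42 and Tfam at 12.5 ± 0.454 RPKM, where Slirp and Tbrg4 did not differ beyond their spread and the Slirp level may hold Snw1 reads. Primpol was lowest at 0.548 ± 0.0993 RPKM and Polg2 the next at 0.904 ± 0.0841 RPKM. In transgenic muscle Lrpprc, at 31.0 ± 0.654 RPKM, and Hsd17b10, at 31.5 ± 0.657 RPKM, did not differ beyond their spread, and Primpol, at 1.13 ± 0.0434, lay within the spread of Polg2, at 1.10 ± 0.0841, and Tk2, at 1.14 ± 0.326 RPKM. Tfb2m stood above Tfb1m in wild type, at 4.65 ± 0.533 against 2.13 ± 0.163 RPKM, and the levels were 3.51 ± 0.228 and 3.85 ± 0.195 RPKM in the transgenic libraries.

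**Figure D4:**
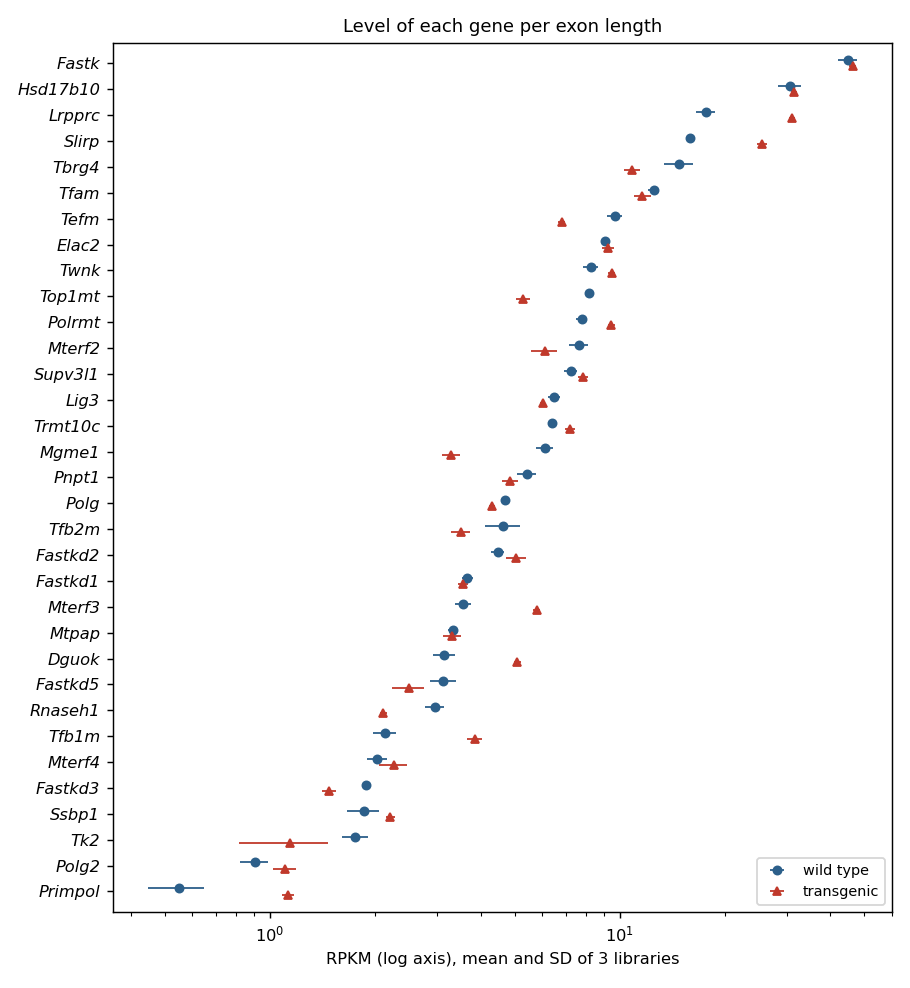
Mean RPKM with its SD over 3 libraries (log x axis) is shown for each of the 33 genes (y axis), ordered by the wild-type level; circles are wild type and triangles transgenic. Levels run from 0.548 RPKM for Primpol to 44.9 RPKM for Fastk in wild type.

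Other genes of these pathways were counted in lists written with earlier results of these data known. Under TMM scaling every list held genes called in both directions. Of all genes tested 25.5% were higher and 25.2% lower, or 52.3% and 8.73% on library totals. In the list of other nucleotide supply and import genes 4 of 23 rose (17.4%) and 11 fell (47.8%), with a median log2 fold change of -0.22. The share that fell was thus above that of all genes under TMM scaling. On library totals 10 were higher (43.5%) and 2 lower (8.7%). Ak4, a mitochondrial adenylate kinase, had the largest rise in that list, from 2.09 ± 0.467 to 20.4 ± 4.49 CPM (SD, n = 3 each; log2 fold change 3.3, SE 0.21, adjusted p = 3.49e-06). Its relative Ak3, which phosphorylates AMP with GTP in the matrix, fell from 86.9 ± 4.72 to 53.8 ± 2.57 CPM (-0.69). The mitochondrial nucleoside diphosphate kinase Nme4 rose (1.86) and Nme6 fell (-0.74), so opposite movements of related kinases were seen there too.

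Of 35 genes for RNA modification and tRNA maturation 7 rose (20%) and 15 fell (42.9%), with a median of -0.11. Here too the share that fell was above the 25.2% of all genes. On library totals 20 were higher (57.1%) and 2 lower (5.71%). Thg1l, which adds a guanosine to the 5′ end of histidine tRNA, rose from 4.01 ± 0.17 to 13.9 ± 1.06 CPM (1.79, SE 0.10, adjusted p = 2.43e-07). Nsun4, the ribosomal RNA methyltransferase that MTERF4 binds, rose by 0.50, and Rcc1l by 0.59. Osgepl1, of the tRNA threonylcarbamoyl pathway, fell by 0.55.

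Among 18 genes of mitochondrial DNA repair and nucleases 5 rose (2 without replicate 2 of both genotypes) and 3 fell, and 12 were higher and 2 lower on library totals. That is 27.8% and 16.7%, against 25.5% and 25.2% of all genes tested. On library totals it is 66.7% and 11.1%, against 52.3% and 8.73%. Polb, the repair polymerase, had a log2 fold change of -0.45 (adjusted p = 0.000118), or -0.05 on library totals. Of 15 nucleoid and inner membrane partners 5 rose (3 without wild-type replicate 1) and 4 fell, against 12 and 0 on library totals. These are 33.3% and 26.7%, or 80% and 0% on library totals, beside the same shares of all genes. Lonp1, the matrix protease that degrades TFAM, rose from 132 to 184 CPM (0.47, SE 0.06).

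Of 21 nuclear regulators 8 rose and 5 fell (3 without wild-type replicate 2), against 15 and 2 on library totals. That is 38.1% and 23.8%, against 25.5% and 25.2% of all genes tested. On library totals it is 71.4% and 9.52%, against 52.3% and 8.73%. Hcfc1, a coregulator, rose from 77.6 ± 1.90 to 147 ± 7.0 CPM (0.92, SE 0.06, adjusted p = 3.34e-07), and Gabpa, the DNA-binding subunit of the ETS factor GABP, rose by 0.56. Yy1 rose by 0.56 as well. Esrra, the oestrogen-related receptor alpha, fell from 158 to 98.0 CPM (-0.69, SE 0.08, adjusted p = 2.95e-05), and was also lower on library totals (-0.29, adjusted p = 0.00518). Its relatives Esrrb (0.50, adjusted p = 0.0192) and Esrrg (0.37, adjusted p = 0.00244) rose, so the oestrogen-related receptor genes had no common direction. Nrf1 had a log2 fold change of -0.30 (adjusted p = 0.0413), or 0.10 on library totals (adjusted p = 0.44).

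The RNAs that these proteins make were measured too, and 12 of 15 mitochondrially encoded mRNAs and rRNAs passed the filter. Relative to other genes 2 rose (1 without wild-type replicate 2 or 3) and 3 fell, and on library totals 8 were higher and 0 lower. That is 16.7% and 25%, against 25.5% and 25.2% of all genes tested. On library totals it is 66.7% and 0%, against 52.3% and 8.73%. The subunit mRNA mt-Co1 fell from 21989 to 17047 CPM (-0.37, SE 0.06), and was 0.03 on library totals. The mRNA mt-Nd6, the one on the light strand, had a log2 fold change of 0.32 (SE 0.08), and 0.71 on library totals. The 6 adjacent genes from mt-Co2 to mt-Nd4l were nearly without counts: mt-Atp8, mt-Nd3 and mt-Nd4l had at most 7 in a library and were not tested, and mt-Co2, mt-Atp6 and mt-Co3, which were tested and not called, had 9 to 21, 8 to 19 and 52 to 126. Every other gene of the list had at least 36855 counts in each library, so the calls above come from the 9 outside that stretch, except mt-Co3, which was higher on library totals (0.50, adjusted p = 0.033).

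**Figure D5:**
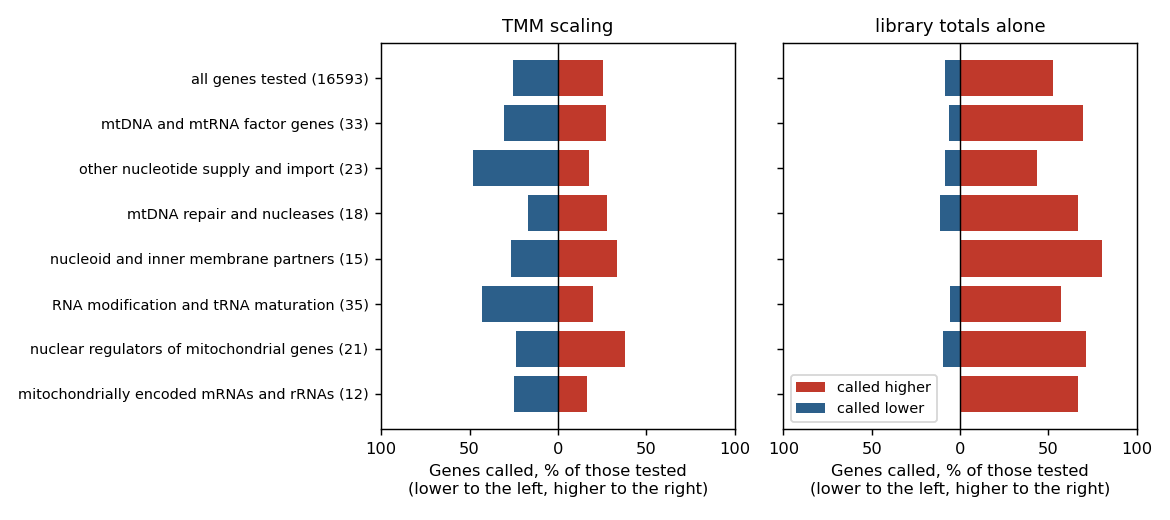
The share of genes called higher (right) and lower (left) in the transgenic muscle (x axis, percent of those tested) is drawn for all genes, the 33 genes and 6 lists of related genes (y axis, with the number tested), under TMM scaling and under library totals alone. With TMM 27.3% of the 33 were called higher and 30.3% lower, against 25.5% and 25.2% of all genes; with library totals the shares were 69.7% and 6.06%, against 52.3% and 8.73%.

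The authors' deposited table of genotype differences, which holds only genes past an absolute log2 fold change of 0.585, lists 8 of the 33 genes, 6 higher and 2 lower. In the authors' deposited table these are Primpol (1.06), Tfb1m (0.84), Lrpprc (0.83), Mterf3 (0.72), Dguok (0.66), Slirp (1.25), Top1mt (-0.65) and Mgme1 (-0.99). All 8 have the sign found here. For Slirp the authors' deposited table differs from the value found here by 0.57, while the median absolute difference over 3355 shared genes was 0.047, and 9.12% of those genes differed by at least as much as Slirp. How the authors counted fragments shared by Slirp and Snw1 for that table is not given in the sources used here, so both values of Slirp, 0.68 and 1.25, may hold Snw1 reads to a different extent. Tk2, which fell at least 1.5-fold here, is not among the genes listed there.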

How the data were processed

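RNA was extracted with Trizol and sequenced as standard Illumina libraries, per the labels' protocols. Per the submitters' processing notes, the authors used STAR 2.5.0a, featureCounts 2.0.0, GRCm38.p6 and DESeq2, whose version is not given in the sources used here. The deposited counts are raw fragments per gene, counted without strand and for every gene a fragment overlaps, per the file headers. A second deposited table holds the authors' own genotype comparison as log2 fold changes, each with a raw and an adjusted p-value. No count column lacked a sample (0 left out).

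Gene positions and exon lengths came from GENCODE for GRCm38, and promoters from RefSeq (GRCm38.p6). Low counts were removed by filterByExpr, libraries were scaled with TMM and genes were tested in R 4.3.3 by a robust quasi-likelihood F test of edgeR 4.0.16 with genotype as its term, with Benjamini-Hochberg adjustment over all genes tested called under 0.05. Fold changes are transgenic relative to wild type, the SE is their absolute log2 value over the root of F, and intervals are 95%. A percentile is the rank of a fold change among all genes tested. RPKM divides TMM-scaled CPM by exon length in kilobases. The script was tested on simulated data. No library duplicated another of its genotype: their counts gave a chi-square of 9.92 to 24.0 for each degree of freedom.

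The members, lists, tests and alternatives were chosen with earlier results of these data known, and the 15 partner pairs after the values were seen. All 33 genes are named; from each related list at most 4 genes past the threshold with the smallest p may be named, and Ppargc1a as the check of labels. Genes that share exons with a member, the 3 untested mitochondrial RNAs, the marker lists, and Esrrb, Esrrg and Nrf1 stand outside that rule. The alternatives were DESeq2 1.42.0, upper-quartile factors, library totals alone, no filter and a filter of 1 CPM in 3 libraries, limma-voom (limma 3.58.1), no robust estimation, a replicate block, mitochondrially encoded genes removed, libraries left out singly or by number, and shorter motif cores.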

Additional observations from a re-analysis of the deposited data

How the results depend on the processing

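Scaling by library totals alone changed the most: 8676 genes were then higher and 1448 lower, of the 33 genes 23 higher and 2 lower with a median log2 fold change of 0.42, and the lists had 20 higher and 2 lower (RNA modification), 8 and 0 (mitochondrially encoded), 12 higher (repair), 15 and 2 (regulators), 12 and 0 (nucleoid partners) and 10 and 2 (other nucleotide supply). On that scaling 9 genes turned positive, Fastkd1 (0.36), Fastkd3 (0.047), Fastkd5 (0.078), Lig3 (0.29), Mterf2 (0.068), Mtpap (0.39), Pnpt1 (0.24), Polg (0.27) and Tfam (0.29). Without a filter on low counts the median of the 33 was 0.065. With 1 library left out it ranged from -0.0054 (without wild-type replicate 1) to 0.055 (without transgenic replicate 2), and with a number left out in both genotypes from -0.012 (replicate 1) to 0.050 (replicate 3). With libraries left out, 7 to 10 of the 33 genes were higher and 6 to 9 lower, the fewest without replicate 3 of both genotypes. Mitochondrially encoded genes called higher were then 0 to 3 (1 without wild-type replicate 2 or 3, or replicate 2 of both), repair genes 2 to 5, regulators called lower 3 to 5 (3 without wild-type replicate 2) and nucleoid partners called higher 3 to 5 (3 without wild-type replicate 1). Dguok, Lrpprc, Mgme1, Mterf3, Polrmt, Primpol, Slirp, Tfb1m and Top1mt kept their calls in all 18 settings, while Fastkd5 lost its call or turned positive in 10, Ssbp1 and Tk2 in 6 each and Twnk in 4. The labels do not say whether a replicate number pairs libraries. Correlations of same-numbered deviations were 0.10, -0.09 and -0.21 over all genes, and 0.29, 0.10 and 0.51 over the 33. With 3 libraries for each genotype they cannot decide it. With the replicate block 4165 genes were higher and 4166 lower, and of the 33 genes 9 and 10. The ETS core CGGAAG stood in 64.5% of the 31 windows, against 16.9% of all promoters and 27.9% of those of tested genes, and the NRF1 core TGCGCA in 12.9%, against 7.76% and 12.5%. No value exists for the mitochondrially encoded list once those genes are removed. The partner ratios kept their sign when each library was left out in turn, an alternative added after the data were seen. For the 12 pairs without overlap no other outcome was possible. Among the overlapping pairs, the difference in log2 ratio of Ssbp1 over Twnk came down to 0.002. Member counts of 82 to 9903 per library limit the precision. The cause of these changes was not tested.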
